A study of Mus musculus with 19 samples.

Results

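Pnpla3 and Pnpla5 are 2 of the 55836 genes counted in the livers of 19 mice, and they were chosen by the fall of their read counts from control mice to mice given polyethylene, a lipid-rich diet or both. The values that chose them were measured in these same libraries, so their levels and fold changes are given below as a description, with no test. The study asked how orally given polyethylene (PE) microplastics and a diet that causes steatohepatitis act on the liver, alone and together. Male wild-type C57BL/6 mice, 8 weeks old at the start, were kept for 8 weeks on a control diet (CD; 10 kcal% fat with matched sucrose) or on a diet (MD) in which fat gave 40 kcal% and fructose 20 kcal%, with cholesterol added at 2%. Over the same 8 weeks each mouse was gavaged daily with 2 mg of PE particles in water with 0.1% Tween 20, or with this vehicle alone (Veh). The CD + Veh group had 4 mice and each of the others, CD + PE, MD + Veh and MD + PE, had 5, with 1 poly(A)-selected liver RNA-seq library per mouse. No transgene or deletion was involved, the mice of a group were housed together, and a cage effect and a group effect cannot be told apart.

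Both genes belong to the patatin-like phospholipase domain family, whose members hydrolyse, transfer or bind lipids at membranes and lipid droplets. PNPLA3 lies on the surface of hepatocyte lipid droplets, where it binds the lipase cofactor ABHD5 and so touches the work of PNPLA2, the main triglyceride lipase of the droplet. Its human gene carries a well-known risk variant for fatty liver. In mouse liver Pnpla3 is known to be switched on by feeding, insulin and carbohydrate through SREBP-1c and ChREBP, the factors that drive de novo lipogenesis. PNPLA5 is a less studied droplet-associated lipase that has been linked to autophagy.

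The genes are neighbours on mouse chromosome 15 (GRCm39, GENCODE vM39). Pnpla5 lies on the minus strand at chr15:83996557-84007376 with 2 annotated transcripts, and Pnpla3 on the plus strand at chr15:84051943-84073723 with 22. They are transcribed away from each other from starts 44.6 kb apart. Their transcripts shared no run of 31 bases, and their longest common run was 14 bases. Of the 5592 distinct 31-base words of Pnpla3, 241 also occur in other genes, against 0 of the 2166 words of Pnpla5. Because both fell together, the window from 250 bases before to 50 bases after the start of each canonical transcript is shown (5′ to 3′ on the strand of the gene, from the GRCm39 genome), with the motifs found by letter match in capitals.
Pnpla3, chr15:84051698-84051997, plus strand: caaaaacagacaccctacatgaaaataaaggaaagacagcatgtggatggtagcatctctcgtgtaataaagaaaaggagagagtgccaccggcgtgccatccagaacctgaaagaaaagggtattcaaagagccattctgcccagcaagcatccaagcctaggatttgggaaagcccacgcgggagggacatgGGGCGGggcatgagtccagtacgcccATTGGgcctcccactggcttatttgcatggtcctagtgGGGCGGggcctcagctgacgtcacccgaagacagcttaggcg
Pnpla5, chr15:84007327-84007626, minus strand: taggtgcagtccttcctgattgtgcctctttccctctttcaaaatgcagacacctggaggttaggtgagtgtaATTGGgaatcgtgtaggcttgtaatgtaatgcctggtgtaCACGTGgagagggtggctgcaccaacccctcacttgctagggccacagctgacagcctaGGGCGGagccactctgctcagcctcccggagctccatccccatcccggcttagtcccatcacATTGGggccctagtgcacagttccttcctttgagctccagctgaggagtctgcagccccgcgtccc
The motifs searched on both strands were the E-box CACGTG, the sterol response element TCACNCCAC, the CCAAT box CCAAT (seen as ATTGG on the other strand), the GC box GGGCGG and the TATA box TATAAA. The Pnpla3 window (54% GC) held GC boxes whose first bases lie at -56 and 9 from the start and a CCAAT box at -30. The Pnpla5 window (57.3% GC) held an E-box at -137, CCAAT boxes at -177 and -16, and a GC box at -78. Neither window held the letters of the sterol response element or the TATA box. Of 21751 promoter windows of the same length, 7.81% held the E-box, 1.33% the sterol response element, 39.9% the CCAAT box, 42.5% the GC box and 13.2% the TATA box. RefSeq places the start of Pnpla3 further downstream and that of Pnpla5 at the same base. A match is a description of these letters and shows no binding.

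The libraries held between 10398820 and 15456729 estimated counts, and every PE library was shallower than every vehicle library of its diet. Hepatocyte genes marked the tissue as labelled: the summed level of 10 markers, among them Alb and Apoa1, was 58610 to 107400 CPM (counts per library size, as edgeR's CPM with TMM scaling) in every library. Skeletal muscle transcripts stood out in MD + Veh replicate 1, where 8 markers summed to 3018 CPM. None of the 36 pairs of libraries within a group was a copy. All libraries carry 1 batch label, and their numbers run on from group to group: CD + Veh 39 to 42, MD + Veh 43 to 47, CD + PE 48 to 52, MD + PE 53 to 57. The division of library numbers used below sets CD + Veh and MD + Veh replicates 1 to 3 (39 to 45) against all others (46 to 57). No label marks this division as a batch. It splits MD + Veh, and as a covariate it rests on the MD + Veh mice alone. Values of the pair within 39 to 45 and within 46 to 57, an alternative chosen after the data were seen, are given beside the results. So are many, but not all, of the counts of the gene lists that moved by over 1.5 times in another setting.

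Pnpla3 was highest in control mice, several-fold lower with either PE or MD, and close to the detection limit with both. The CD + Veh libraries had 186, 362, 124 and 262 reads of Pnpla3 (replicates 1 to 4), or 11.6, 25.9, 8.32 and 17.6 CPM. The CD + PE libraries had 14, 57, 8, 11 and 13 reads, or 1.16, 5.00, 0.706, 1.1 and 1.28 CPM. All 5 lay below the lowest control library, and replicate 2 stood far above the other 4. The MD + Veh libraries had 29, 36, 13, 16 and 51 reads, or 1.84, 2.23, 0.886, 1.24 and 3.94 CPM. The MD + PE libraries had 3, 11, 1, 3 and 4 reads, or 0.244, 0.926, 0.0869, 0.206 and 0.359 CPM. The MD + Veh values all lay below CD + Veh and interleaved with CD + PE, and 4 of the 5 MD + PE libraries lay below every library of the other groups. Group means ± SD were 15.9 ± 7.74 (n = 4), 1.85 ± 1.77 (n = 5), 2.03 ± 1.19 (n = 5) and 0.364 ± 0.329 CPM (n = 5) in the order given. From the level of Pnpla3 alone, fewer hepatocytes and less RNA per hepatocyte cannot be told apart in liver homogenate. The summed hepatocyte markers had group medians of 91610, 94930, 73920 and 66730 CPM, with the groups ordered as for these means. The medians thus differed between groups by far less than mean Pnpla3 did. The part of hepatocyte number in the fall of Pnpla3 was not tested.

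Pnpla5, from a lower start, was also highest in CD + Veh and lowest in MD + PE, with CD + PE and MD + Veh between them. Its reads numbered 115, 73, 58 and 133 in CD + Veh, or 7.15, 5.23, 3.89 and 8.96 CPM. In CD + PE they numbered 6, 25, 2, 5 and 8, or 0.498, 2.19, 0.177, 0.502 and 0.790 CPM. Replicate 2 was again the highest of its group, and no CD + PE library reached the control range. In MD + Veh there were 1, 14, 8, 4 and 25 reads, or 0.0634, 0.867, 0.546, 0.310 and 1.93 CPM, with replicate 5 the highest, as for Pnpla3. In MD + PE there were 2, 0, 0, 1 and 1 reads, or 0.163, 0, 0, 0.0687 and 0.0898 CPM. Every MD + PE library was thus at or under 3 reads, the limit that a count of 0 allows, which in single libraries of the series corresponds to 0.186 to 0.301 CPM; 3 of the 5 were so for Pnpla3. Group means ± SD were 6.31 ± 2.22 (n = 4), 0.832 ± 0.791 (n = 5), 0.743 ± 0.727 (n = 5) and 0.0642 ± 0.0682 CPM (n = 5). Both genes passed the filter on low counts over the 19 libraries. In fits of 2 groups alone, Pnpla5 did not pass it unless CD + Veh was one of them.

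**Figure D1:**
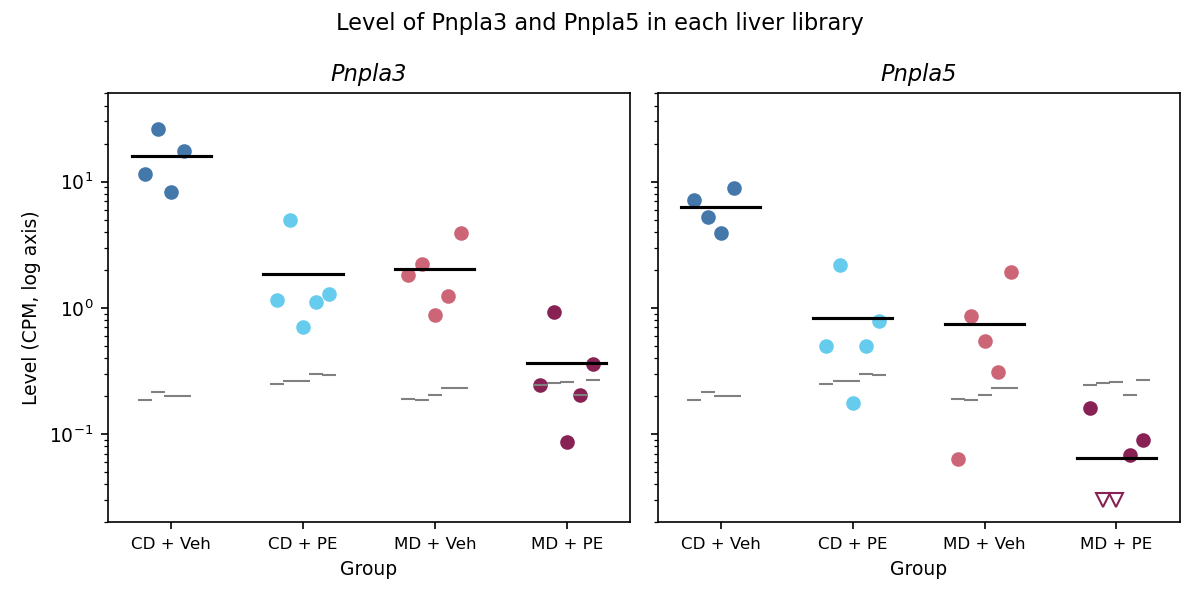
Level of Pnpla3 (left) and Pnpla5 (right) in each of the 19 libraries, in CPM on a log axis, by group. Points are libraries, black lines group means, grey ticks the level of 3 reads in that library, and open triangles libraries with 0 reads, drawn at the foot; the CD + Veh libraries lie above all others in both panels, and all 5 MD + PE libraries of Pnpla5 lie under the grey ticks.

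PE on the control diet went with a drop of both genes of about the same size. The fitted log2 fold change of CD + PE against CD + Veh was -3.08 (SE 0.518) for Pnpla3 and -2.90 (SE 0.605) for Pnpla5. On pooled reads per sequencing depth, CD + Veh exceeded CD + PE 8.32-fold for Pnpla3 (95% exact interval 6.78 to 10.3) and 7.56-fold for Pnpla5 (5.56 to 10.5); these intervals cover counting error only. The lowest control library was 1.66 times the highest CD + PE library for Pnpla3 and 1.77 times for Pnpla5. Without CD + PE replicate 2 the log2 fold changes were -3.89 and -3.67. In the fit of all 19 libraries, the pair ranked 19th and 22nd from the lowest fold change of the 13597 genes tested. The pair was chosen for this fall, so the low ranks are no support for it.

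On MD, PE also went with a fall of both genes, from a level that was already low. MD + PE against MD + Veh gave -2.46 (SE 0.640) for Pnpla3 and -3.31 (SE 0.919) for Pnpla5. The pooled ratio of MD + Veh to MD + PE was 5.58 (3.55 to 9.19) and 11.0 (4.05 to 41.9), the latter from 52 against 4 reads. The ranges of the groups overlapped for both genes, through MD + PE replicate 2 for Pnpla3 and through MD + Veh replicate 1, with a single read, for Pnpla5. With libraries 46 to 57 alone, which leaves 2 MD + Veh mice, the values were -2.79 and -3.89.

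The diet alone was matched by a fall as deep as that beside PE alone. MD + Veh against CD + Veh gave -2.97 (SE 0.507) for Pnpla3 and -3.09 (SE 0.600) for Pnpla5, with pooled ratios of 7.81 (6.55 to 9.36) and 8.83 (6.60 to 12) in favour of CD + Veh and no overlap of libraries. With libraries 39 to 45 alone they were -3.24 and -3.65. This comparison and that of CD + PE use the same 4 control libraries, so their likeness is partly shared. Set directly against each other, MD + Veh and CD + PE differed by 0.12 for Pnpla3 (95% interval -0.91 to 1.14) and by -0.19 for Pnpla5 (-1.43 to 1.06), with overlapping libraries; intervals this wide do not show that the levels were equal.

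In PE-treated mice, MD was accompanied by a further fall. MD + PE against CD + PE gave -2.34 (SE 0.655) for Pnpla3, with overlapping ranges, and -3.50 (SE 0.922) for Pnpla5, whose highest MD + PE library (0.163 CPM) lay just under the lowest CD + PE library (0.177 CPM). Without CD + PE replicate 2 the values were -1.53 and -2.73. Both factors together, MD + PE against CD + Veh, gave -5.42 (SE 0.621) and -6.40 (SE 0.823), that is 43.6-fold (28.6 to 69.9) and 97.3-fold (37.7 to 359) fewer pooled reads than in the controls. The fall with PE differed between the diets by 0.63 (SE 0.824) for Pnpla3 and by -0.41 (SE 1.1) for Pnpla5 on the log2 scale, less than 1 SE for either gene, and leaving out single libraries moved both values across 0. The 95% intervals of these differences ran from -0.99 to 2.24 and from -2.57 to 1.74, too wide to show that the falls on the log2 scale added up.

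**Figure D2:**
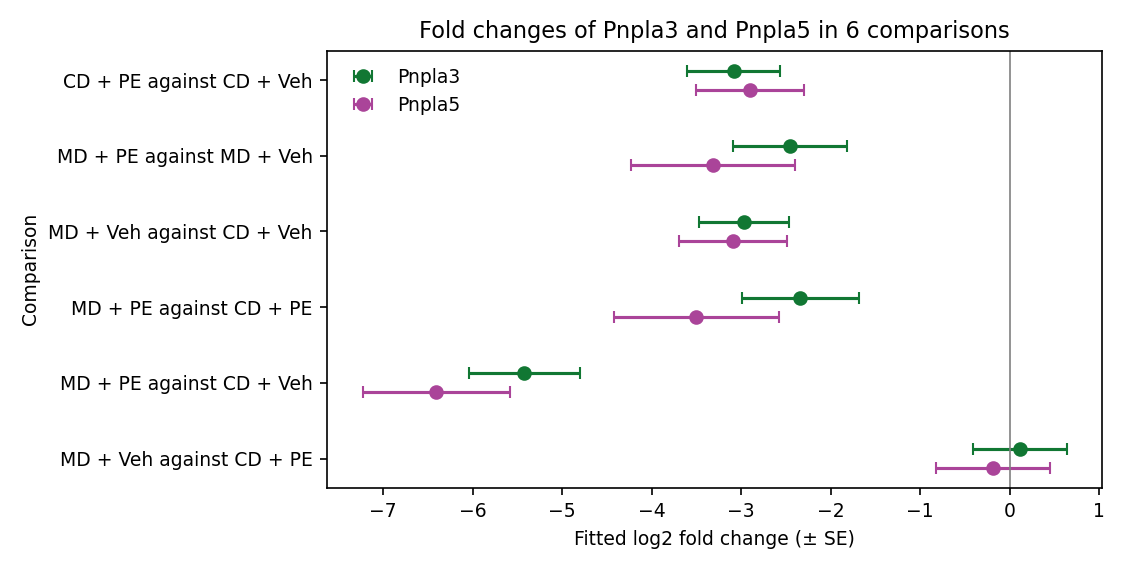
Fitted log2 fold change of Pnpla3 (green) and Pnpla5 (purple) in 6 comparisons between groups, first group over second, with bars of ± 1 SE. The 4 single-factor comparisons lie between -3.50 and -2.34, both factors together reach -5.42 and -6.40, and MD + Veh against CD + PE lies at 0.12 and -0.19.

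Within groups the genes moved together only in part. CD + PE replicate 2 and MD + Veh replicate 5 were the highest of their groups for both, while in CD + Veh the highest library was replicate 2 for Pnpla3 and replicate 4 for Pnpla5. Over the 19 libraries, log2 CPM of the genes correlated with r = 0.92 (rho = 0.851), and after removal of the group means r was 0.557 (rho = 0.536; 0.554 without the 2 farthest libraries). These are descriptions over libraries that share the groups and depth, and the genes were chosen for a common pattern. The share of Pnpla5 in the summed reads of the pair was 28.9% in CD + Veh (95% exact interval 26.4 to 31.4), 30.9% in CD + PE (23.6 to 39), 26.4% in MD + Veh (20.4 to 33.1) and 15.4% in MD + PE (4.36 to 34.9), the last from 4 of 26 reads. These intervals pool the reads of a group and cover counting error only, not the spread between mice. The intervals of all 4 groups overlapped, while the levels differed several-fold, which does not show that the share was stable. Single mice departed from the share of their group: Pnpla5 made up 16.8% (13.4 to 20.6) in CD + Veh replicate 2 against 31.9% to 38.2% in the other 3 controls. In MD + Veh replicate 1, the library with muscle transcripts, it made up 3.33% (0.0844 to 17.2), 1 of 30 reads.

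**Figure D3:**
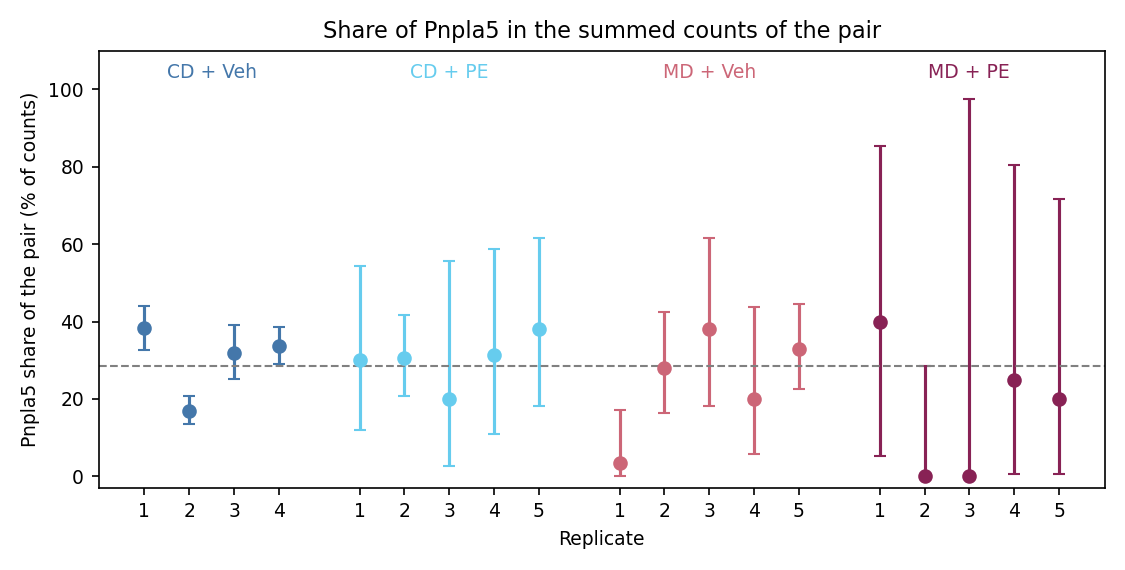
Share of Pnpla5 in the summed reads of Pnpla3 and Pnpla5 (percent of counts) for each replicate of the 4 groups, with exact 95% binomial intervals; the dashed line is the share over all libraries, 28.6%. CD + Veh replicate 2 and MD + Veh replicate 1 are the libraries whose interval lies wholly below the line, apart from MD + PE replicate 2, whose upper bound of 28.5% touches it. The intervals of CD + Veh replicates 1 (32.7% to 44%) and 4 (29% to 38.6%) lie wholly above it.

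Per length of transcript (CPM per kb, with the mean transcript length of 3001.3 bases for Pnpla3 and 1933 for Pnpla5), Pnpla3 was 1.62 times the level of Pnpla5 in CD + Veh, 1.43 times in CD + PE and 1.76 times in MD + Veh. With the longest transcript of each gene (5160 and 2172 bases) these ratios were 1.06, 0.937 and 1.15, so the order of the genes depends on which transcripts are made. In CD + Veh, mean CPM of Pnpla3 exceeded that of 55.2% of the genes tested and Pnpla5 that of 35.3%. In MD + PE these shares were 1.07% and 0.257%. Both genes were chosen for their fall, and in fits of compared groups alone Pnpla5 passed the filter only beside CD + Veh. The low shares in MD + PE are therefore no support for the fall.

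None of the other members of the family that could be tested was called. Pnpla2, the main triglyceride lipase, Pnpla6 and Pnpla7, lysophospholipases of the endoplasmic reticulum, and Pnpla8, a phospholipase of mitochondria and peroxisomes, were tested, and 0 of these 4 passed in any of the 4 single-factor comparisons (edgeR's quasi-likelihood test, Benjamini-Hochberg adjusted p below 0.05 and a log2 fold change of at least 0.38 in size; DESeq2 also called 0 of them). At an unadjusted p below 0.05, 1 of the 4 passed in every comparison but MD + Veh against CD + Veh, where 0 did. Over all genes tested, 1.7% were called lower and 1.22% higher in CD + PE against CD + Veh, 0.934% and 0.147% in MD + PE against MD + Veh, 5.63% and 4.74% in MD + Veh against CD + Veh, and 2.92% and 1.69% in MD + PE against CD + PE. For these 4 genes a count of 0 lies near these shares, which are also the background of the edgeR list counts below. Mean Pnpla2 was 61.8 and 57.8 CPM on CD without and with PE, and 51.6 and 45.5 CPM on MD, with single-factor log2 fold changes from -0.34 to -0.10, so its means were also highest in CD + Veh and lowest in MD + PE, by far smaller steps. Mean Pnpla7 was, in the same order, 153.5 ± 8.77 (SD, n = 4), 127.5 ± 6.23 (n = 5), 157.9 ± 10.2 (n = 5) and 123.4 ± 14.4 CPM (n = 5). Its value on MD with PE was -0.36 (SE 0.0735, edgeR adjusted p = 0.0193), just short of the fold limit, and it was called, at -0.41, when MD + PE replicate 1 was left out. Pnpla6 and Pnpla8 lay within -0.14 to 0.12 in every single-factor comparison. Pnpla1, a lipase of skin, had 2 reads in all libraries together and was not tested.

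**Figure D4:**
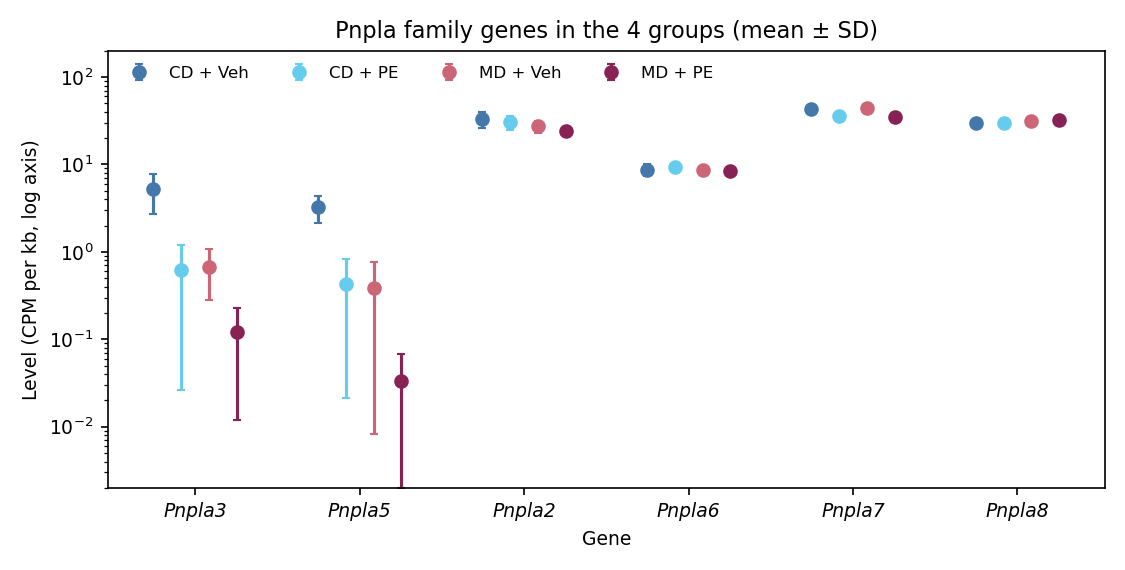
Level of the measured Pnpla genes in the 4 groups, in CPM per kb of mean transcript length on a log axis, as mean ± SD over the libraries of a group (n = 4 or 5); a bar that runs to the foot of the axis marks an SD above the mean. Pnpla3 and Pnpla5 step down from CD + Veh to MD + PE, while Pnpla2, Pnpla6, Pnpla7 and Pnpla8 stay between 8.44 and 44.1 CPM per kb.

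Of the genes around the pair, Samm50, which starts beyond the 3′ end of Pnpla3 on the same strand (chr15:84076416-84101477) and encodes the core of the sorting and assembly machinery of the mitochondrial outer membrane, was likewise highest in CD + Veh and lowest in MD + PE. Its mean level was 126 and 92.2 CPM on CD without and with PE, and 81.5 and 65.6 CPM on MD. It fell by 0.45 on the log2 scale in CD + PE against CD + Veh (SE 0.0708, edgeR adjusted p = 0.00176), by 0.63 in MD + Veh against CD + Veh (SE 0.0707, adjusted p = 8.7e-06) and by 0.49 in MD + PE against CD + PE (SE 0.0677, adjusted p = 0.000123). In MD + PE against MD + Veh its value was -0.31 (SE 0.0675, adjusted p = 0.0259), below the fold limit. With the division of library numbers as a covariate the call in CD + PE was lost (-0.52, adjusted p = 0.0797). Parvb and Parvg, parvins of cell adhesion that follow Samm50, passed in none of the 4 comparisons over all libraries. Their log2 fold changes ran from -0.17 to 0.49 and from 0.00 to 1.13. Parvg was called higher on MD in vehicle without MD + Veh replicate 4, with the covariate (1.42, edgeR adjusted p = 0.0355) or with libraries 39 to 45 alone (1.43, adjusted p = 0.0229), and on MD in PE without CD + PE replicate 2. Sult4a1, with 9 reads in all, and Efcab6, with 0, were not tested, and the noncoding RNAs between and across the pair had at most 32 reads in all libraries.

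The genes whose log2 CPM was most like that of Pnpla3 over the 19 libraries were mostly enzymes of fatty acid synthesis. In order of Pearson's r they were Pgd (0.955), which supplies NADPH in the pentose phosphate pathway, Fasn (0.946), the fatty acid synthase, Acly (0.945), which makes cytosolic acetyl-CoA, Elovl6 (0.943), an elongase, Me1 (0.937), malic enzyme, Gpam (0.937), which starts glycerolipid synthesis, Thrsp (0.931), a lipogenic cofactor, Gm5182 (0.93), Acaca (0.921), the acetyl-CoA carboxylase, and Paox (0.921), a polyamine oxidase. For Pnpla5 they were Elovl6 (0.956), Acaca (0.946), Acly (0.941), Me1 (0.939), Pklr (0.931), the pyruvate kinase of liver, Gpi1 (0.925) and Eno1 (0.921), of glycolysis, Khk (0.924), the fructose kinase, Samm50 (0.923) and Acsl4 (0.923), an acyl-CoA synthetase. Of each 10, 8 and 5 were on a list of 24 lipogenic genes, and 4 genes were common to both. Each of the pair ranked 11th for the other, and after removal of group means Pnpla5 ranked 266th for Pnpla3 and Pnpla3 233rd for Pnpla5. After removal of group means, r over the same libraries ran from 0.453 to 0.796 for the first set and from 0.547 to 0.796 for the second. These correlations are descriptions over 19 libraries that share groups and depth.

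Lipogenic enzymes and their partners fell with each factor, by less than Pnpla3 and Pnpla5 in most cases. Of the 24 tested, 16 were called lower and 0 higher in CD + PE against CD + Veh, with a median log2 fold change of -1.0 against 0.01 for all genes. In MD + PE against MD + Veh 13 were lower (median -0.71, all genes -0.01), in MD + Veh against CD + Veh 19 were lower and 1, Agpat2, higher (median -1.35, all genes 0.00), and in MD + PE against CD + PE 14 were lower (median -0.91, all genes -0.02). With PE on the control diet the largest falls were those of G6pdx, the first enzyme of the pentose phosphate pathway (-2.23, SE 0.371, edgeR adjusted p = 0.00269), Thrsp (-2.05), Acly (-1.82), Elovl6 (-1.75) and Acaca (-1.61). Both Pnpla3 and Pnpla5, which were chosen for their fall, lay below all 24. With PE on MD the largest falls were those of Acacb, the mitochondrial acetyl-CoA carboxylase (-2.48, SE 0.295, adjusted p = 0.000611), Thrsp (-1.58), Fasn (-1.47), Scd1, the stearoyl desaturase (-1.32), and Elovl5 (-1.29). With MD alone G6pdx (-3.05) reached the size of the pair, followed by Acss2 (-2.74), Rdh11 (-2.63), Acly (-2.17) and Acacb (-2.06), and in PE-treated mice Acacb fell by 2.97 on the log2 scale and Rdh11 changed by -2.40. Of the 24, 18 had their highest mean in CD + Veh and their lowest in MD + PE, as both Pnpla genes did, against 16.7% of all genes tested. A difference of the PE effect between diets was called for 0 of the 24 by edgeR (9 at an unadjusted p below 0.05) and for 3 by DESeq2. Over all 13597 genes tested edgeR called 1 for this difference, so 0 of 24 lies near the share of all genes. The count over all genes by DESeq2 is given in the last section. The median difference of the 24 was 0.305, with 7 below 0, against -0.02 for all genes, of which 53% were below 0. The PE counts rested on which libraries were compared: with the division of library numbers as a covariate 6 genes were called in either PE comparison, with libraries 46 to 57 alone 4 on MD, and without MD + PE replicate 3 or without replicate 4 8 on MD. Most of the folds whose calls were lost under the covariate stayed about as large. With PE on CD, Fasn was -1.70 (-1.58 without the covariate), Acss2 -1.57 (-1.60) and Acacb -1.52 (-1.56), while G6pdx was -1.61 (-2.23). With PE on MD, Fasn was -1.54 (-1.47). Of the lipogenic promoter windows, all 24 of which were found, 3 held the E-box, 3 the sterol response element, 11 the CCAAT box, 11 the GC box and 2 the TATA box.

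**Figure D5:**
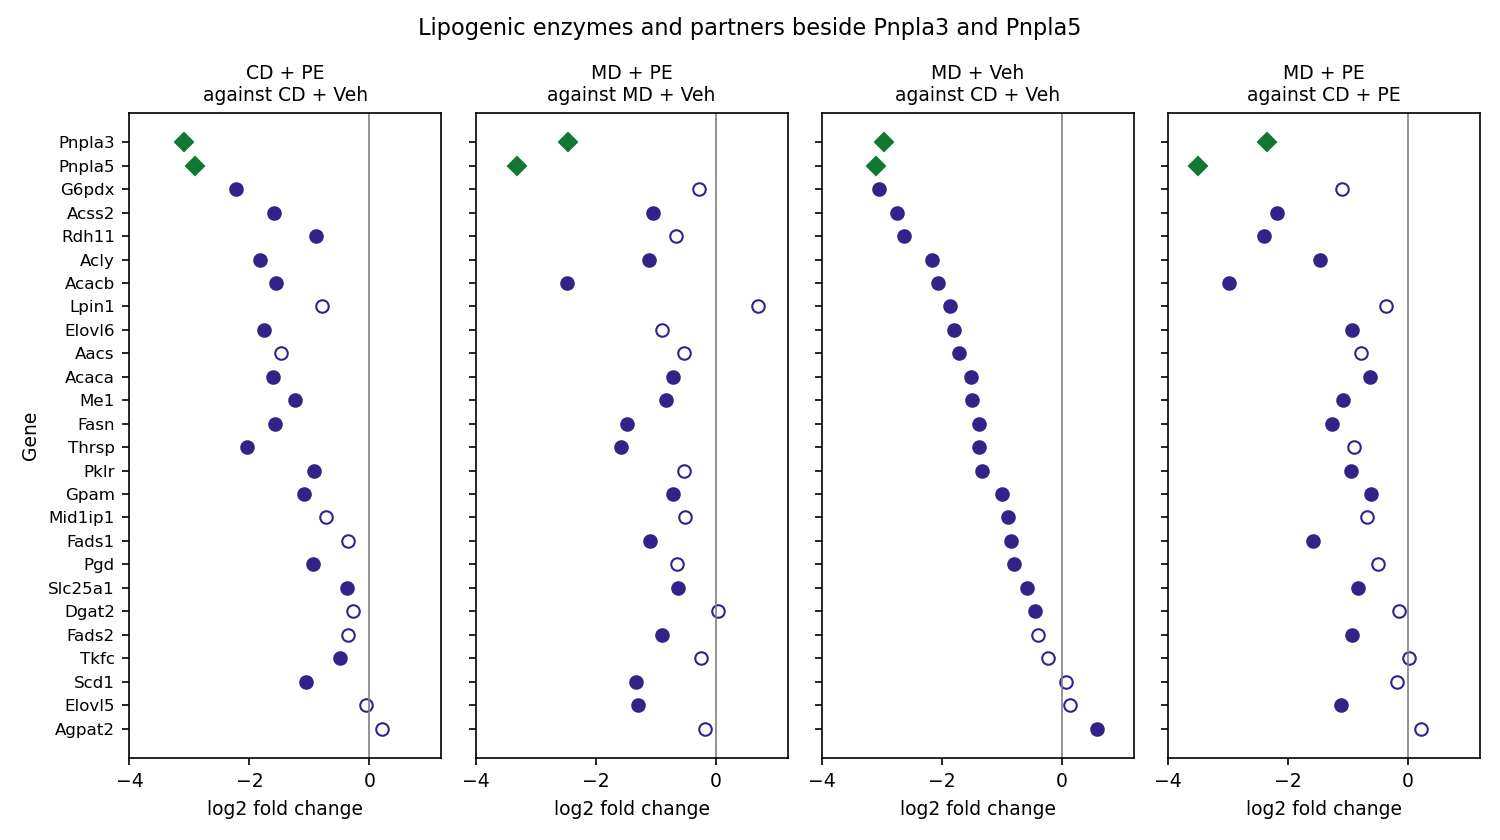
Log2 fold changes of 24 lipogenic enzymes and partners (circles; filled where called by edgeR, open where not) below those of Pnpla3 and Pnpla5 (diamonds, not tested) in the 4 single-factor comparisons, genes ordered by MD + Veh against CD + Veh. The diamonds lie left of every circle in CD + PE against CD + Veh, while in the others G6pdx, Acacb or Rdh11 reaches as far as or beyond Pnpla3.

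The transcripts of the regulators moved less than their targets. Srebf1, which encodes SREBP-1, was 486 and 341 CPM on CD without and with PE and 595 and 485 CPM on MD, and was not called in the 4 comparisons over all libraries (log2 fold changes -0.51, -0.30, 0.29 and 0.51 for PE on CD, PE on MD, MD in vehicle and MD in PE). Mlxipl, which encodes ChREBP, lay within -0.22 to 0.18 and did not pass either. Of 23 regulators tested, 1 was lower with PE on CD: Scap, the escort of SREBP out of the endoplasmic reticulum (-0.65, SE 0.110, edgeR adjusted p = 0.00286), a call lost with the division of library numbers as a covariate. Without CD + PE replicate 1, Srebf1 was called lower with PE on CD (-0.76, edgeR adjusted p = 0.0253) and higher with MD in PE (0.77, adjusted p = 0.0111). With MD in vehicle-treated mice Scap (-1.07), Txnip (-1.51) and Srebf2 (-0.46, a call lost without CD + Veh replicate 4 and with libraries 39 to 45 alone) fell, and Insig2, which retains SREBP, rose by 1.36 (SE 0.176, adjusted p = 4.5e-05), as did Pparg by 0.91, whose call was lost without CD + Veh replicate 1 or 3 or without MD + Veh replicate 2 or 3, and with libraries 39 to 45 alone. With MD in PE-treated mice Insig1 (-1.19), Srebf2 (-0.67) and Scap (-0.59) fell and Insig2 rose by 0.66. With PE on MD, Srebf2 was called at -0.39, and the call was lost without CD + Veh replicate 4, MD + Veh replicates 1 or 2, or MD + PE replicates 3, 4 or 5, with the covariate and with libraries 46 to 57 alone.

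Some genes of the lipid droplet, where the PNPLA3 protein acts, rose on MD. Of 25 tested, 9 rose and 1 fell in MD + Veh against CD + Veh (median log2 fold change 0.10), and 5 rose and 1 fell in MD + PE against CD + PE (median 0.07). The droplet proteins Cidea (6.67), Cidec (3.45) and Plin4 (2.49) had the largest rises with MD in vehicle-treated mice, followed by Fitm1 (1.76). Abhd5, whose product both PNPLA2 and PNPLA3 bind, was the 1 that fell, by 0.64 on the log2 scale (SE 0.123, edgeR adjusted p = 0.00155). It was also the only gene of the list called with PE on CD (-0.66, SE 0.124, adjusted p = 0.00591), where DESeq2 called 4. In that comparison 2 rose without CD + PE replicate 4 or without MD + Veh replicate 5, and 1 without replicate 2 of CD + Veh or CD + PE, MD + Veh replicate 3 or MD + PE replicate 4 or 5. With MD in vehicle 2 fell when CD + Veh replicate 1, replicate 2 or 3 of CD + PE, MD + Veh replicate 4 or MD + PE replicate 2 or 5 was left out, as with MD in PE when CD + PE replicate 2 was. With PE on MD 0 of the 25 were called by edgeR (9 at an unadjusted p below 0.05) and 2 by DESeq2. Over all genes tested, edgeR called 0.934% lower and 0.147% higher in that comparison, so a count of 0 lies near the share of all genes. In PE-treated mice on MD the 1 that fell was Tm6sf2, another gene of fatty liver risk (-0.71, SE 0.137, adjusted p = 0.00319), and Abhd5 stayed at 0.05.

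Sterol synthesis genes, targets of SREBP-2, fell beside the pair: 11 of 22 were lower with PE on CD, 13 with PE on MD, and 21 with MD in either treatment, with 0 higher. In the order of these comparisons Sqle changed by -1.45, -1.26 (not called), -5.65 and -5.46, and with the division of library numbers as a covariate 1 and 6 genes were called in the PE comparisons. The count of 11 was 7 when CD + Veh replicate 1 or any of replicates 1, 3 and 4 of CD + PE was left out, and 4 without CD + Veh replicate 4. The count of 13 was 8 without MD + PE replicate 3 and 2 with libraries 46 to 57 alone. Fatty acid oxidation genes went the other way in part: 5 of 21 rose with PE on CD, 0 with PE on MD by edgeR (5 at an unadjusted p below 0.05 in either direction, 1 by DESeq2), 10 with MD in vehicle and 3 with MD in PE, and 0 fell. The 5, led by Cyp4a10 (2.45), depended on single libraries and were 0 with the covariate, or when CD + Veh replicate 1 or replicate 3 of CD + PE was left out, 1 without CD + Veh replicate 2, 2 without CD + Veh replicate 3, and 3 without CD + PE replicate 5, MD + Veh replicate 3 or MD + PE replicate 2 or 3. The 3 were 5 without CD + PE replicate 3.

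Other values moved with the same groups. Pnpla3 and its regulators follow the time of day and feeding, and of 17 clock genes 2 rose with PE on CD (Bmal1, 1.60, and Clock, 0.63). With MD in vehicle 5 rose, among them Npas2 (3.60) and Bmal1 (2.15), and 5 fell, among them Ciart (-2.19), while edgeR called 0 with PE on MD (1 at an unadjusted p below 0.05) and with MD in PE (2), as did DESeq2. The summed clock level was 737.7 to 906.6 CPM in CD + Veh, 400.2 to 812.8 in CD + PE, 486 to 686.2 in MD + Veh and 486 to 662.9 in MD + PE. The 2 were 0 with the division of library numbers as a covariate or when CD + Veh replicate 1 or 4 was left out, and 1 when replicate 2 of CD + Veh or of CD + PE was. The 5 that fell were 8 with libraries 39 to 45 alone and 1 to 3 without CD + Veh replicate 1, 2 or 4 or MD + Veh replicate 1, 2 or 3, and 2 fell with MD in PE without CD + PE replicate 2. The part of the clock in the fall of the pair was not tested.

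Pnpla3 was first described in adipocytes. The summed level of 9 adipocyte markers was 6.98 to 12.3 CPM in CD + Veh and 7.03 to 10.9 in CD + PE, and 107 to 264.5 in MD + Veh and 146 to 246.8 in MD + PE, mostly Cfd. All 3 of the 9 that passed the filter (Cfd, Cidec, Fabp4) rose with MD in either treatment and edgeR and DESeq2 called 0 with PE, as at an unadjusted p below 0.05. Adipoq and Lep, which define adipocytes, were at or under 0.43 CPM in every library of CD + Veh, CD + PE and MD + PE. In MD + Veh they ran from 0 to 4.18 and from 0 to 3.04 CPM. Both were highest in MD + Veh replicate 1, which held most of the 77 and 52 reads of that group. Hepatocyte markers were called by edgeR for 0 of 10 with PE on either diet (5 on CD and 3 on MD at an unadjusted p below 0.05, 1 and 0 by DESeq2), 3 lower and 1 higher with MD in vehicle, and 4 lower with MD in PE. The 1 was not called with the covariate, with libraries 39 to 45 alone, or without CD + Veh replicate 1 or 3 or MD + Veh replicate 2, 3 or 4, and 1 or 2 rose with PE on CD without CD + Veh replicate 2, CD + PE replicate 2, MD + Veh replicate 1 or MD + PE replicate 4. Muscle markers rose, 8 of 8, with MD in vehicle, and 4 of 8 fell with PE on MD; without MD + Veh replicate 1 both counts were 0. The 8 were also 0 without CD + Veh replicate 1, 3 or 4, and the 4 ran from 0, as with the covariate, with libraries 46 to 57 alone or without any 1 of the MD + PE libraries, to 8, as without MD + Veh replicate 4 or 5 or CD + PE replicate 1. Without that library the log2 fold change of MD + Veh against CD + Veh was -2.92 for Pnpla3 and -2.77 for Pnpla5. The part of these cell types in the levels of the pair was not tested.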

How the data were processed

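Liver RNA-seq of 19 mice was analysed (CD + Veh 4, CD + PE, MD + Veh and MD + PE 5 each, grouped by the sample titles, with doses and diets from the methods of the study). The authors trimmed reads with fastp 0.23.4, quantified them with Salmon 1.10.3 against the GENCODE transcriptome of GRCm39 with sequence bias correction, and collapsed them to gene level with tximport. Deposited were the authors' estimated counts per gene, given as whole numbers with no normalization or filter. Pnpla3 and Pnpla5 and all gene lists were chosen with earlier results of these data known.

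Counts were scaled by TMM and fitted over all 19 libraries with edgeR 4.0.16 (R 4.3.3; filterByExpr by group, 13597 genes kept; quasi-likelihood F test, Benjamini-Hochberg over all genes tested). A gene was called at an adjusted p below 0.05 and a log2 fold change of at least 0.38 in size, the limits of the study, whose own tool, DESeq2 (here 1.42.0), was an alternative. Log2 CPM used a prior count of 2; intervals of pooled ratios and shares are exact binomial at 95%. P-values measure the spread between mice that the study names as separate animals. On simulated counts for the same 13597 genes with 200 changed by a log2 of 1.5, 81%, 82%, 80% and 81.5% were recovered for PE on CD, PE on MD, MD in vehicle and MD in PE.

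Depth was 10398820 to 15456729 counts, at which 3 reads make 0.186 to 0.301 CPM. Intervals of pooled ratios and shares cover counting error only. Each SE is the size of the fold change divided by the square root of the F statistic of its quasi-likelihood test. For the difference between diets of the pair, the SE is the root of the summed squares of the SEs of both PE comparisons. The intervals of MD + Veh against CD + PE and of the difference between diets are the fitted value ± 1.96 SE, and are approximate. Named genes were the Pnpla family, the locus neighbours that passed the filter, the 10 genes most like each of the pair by Pearson's r, and the called genes with the largest fold changes, up to 8 of the lipogenic and regulator lists and 6 of each other; Mlxipl, Srebf1, Adipoq, Lep and the gain of Agpat2 were named outside this rule, after their values were seen. Lists were the other Pnpla genes, locus neighbours, lipogenic enzymes, their regulators, lipid droplet, sterol synthesis, fatty acid oxidation, clock, and adipocyte, hepatocyte and muscle markers. Gene positions and promoters come from GENCODE vM39 and GRCm39, which named 97.9% of the genes in the table. Alternatives were other scaling (RLE), DESeq2, other filters, fits of the compared groups alone, a replicate block, a covariate for library numbers above 45, leaving out each library, and, chosen after seeing the data, fits within library numbers 39 to 45 and 46 to 57.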

Additional observations from a re-analysis of the deposited data

Results flagged for a closer look

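The 40 sets of values by group were levels of Pnpla genes, Samm50, Parvb and Parvg, and the share of Pnpla5 in the pair. Of these, 2 held a library far from the others by Dixon's criterion at 95%. Chance alone gives about 1 in 20, so this is about as many as chance gives. Pnpla3 in CD + PE replicate 2 was 5.00 CPM (4.999), against 1.28 CPM in the next library of the group. Pnpla2 in MD + Veh replicate 1, the library with muscle transcripts, was 65.3 CPM, against 50.2 CPM in the next.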

How the results depend on the processing

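Over 29 settings no comparison changed direction where Pnpla3 and Pnpla5 were lower: all 274 values of the 5 comparisons in which both were lower stayed below 0. The pair was chosen for its fall in these libraries, and every setting reuses them, so these signs are no support for the fall. With the division of library numbers as a covariate, which rests on the 5 MD + Veh mice, Pnpla5 was -4.07 in CD + PE against CD + Veh and -7.57 in MD + PE against CD + Veh. The same setting called 37 genes (397 in the fit reported) in CD + PE against CD + Veh and 33 (147) in MD + PE against MD + Veh, and 6 lipogenic genes in each (16 and 13); 54 genes (1) were called for the difference of the PE effect between diets. MD + PE against MD + Veh called 303 genes with DESeq2, 73 with these groups alone and 18 with libraries 46 to 57, which left 4 lipogenic genes. MD + PE against CD + PE called 964 genes (627) with no minimum fold change, and the difference between diets 80 with DESeq2. Per length, Pnpla3 over Pnpla5 in MD + PE was 3.66, or 2.39 with the longest transcripts.

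Same-numbered mice did not deviate together (median r of 27 pairs 0.0293, 6 above 0.1), so the numbers pair no samples; with the replicate block the pair changed by -3.37 and -3.36 in CD + PE against CD + Veh, the difference between diets for Pnpla5 became 0.18, and 41 genes were called for it. With the block, 3 clock genes were lower with PE on CD (0 without it) and 8 with MD in vehicle (5), 3 fatty acid oxidation genes were higher with PE on CD (5), 8 muscle markers were lower with PE on MD (4), and Srebf1 was called higher with MD in PE (0.54, edgeR adjusted p = 0.0209).

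Leaving out single libraries gave the following ranges. The log2 fold change of Pnpla3 ran from -3.89 to -2.74 for PE on CD, -3.13 to -2.08 for PE on MD, -3.33 to -2.63 for MD in vehicle, -3.01 to -1.53 for MD in PE, -6.10 to -5.08 for both together, -0.26 to 0.92 for MD + Veh against CD + PE and -0.04 to 1.43 for the difference between diets. The log2 fold change of Pnpla5 ran from -3.67 to -2.64 for PE on CD, -3.89 to -2.62 for PE on MD, -3.77 to -2.77 for MD in vehicle, -4.07 to -2.73 for MD in PE, -6.98 to -6.13 for both together, -0.88 to 0.58 for MD + Veh against CD + PE and -0.98 to 0.36 for the difference between diets. Genes called numbered 215 to 426 for PE on CD, 56 to 243 for PE on MD, 1019 to 1652 for MD in vehicle, 505 to 987 for MD in PE and 0 to 3 for the difference between diets; the lowest were without CD + Veh replicate 4 for PE on CD and without MD + PE replicate 3 for PE on MD, and the highest for PE on MD and MD in PE without MD + Veh replicate 4 and CD + PE replicate 2. Lipogenic genes called numbered 13 to 16 for PE on CD, 8 to 14 for PE on MD, 17 to 20 for MD in vehicle and 11 to 16 for MD in PE, and other Pnpla genes 0, or 1 for PE on MD without MD + PE replicate 1. The cause of these changes was not tested. With only the compared groups, the 3 comparisons without CD + Veh gave no value for Pnpla5, which failed the filter, and the difference between diets, which needs all groups, had no such fit. In these fits 0 clock genes (2 in the fit reported) and 1 fatty acid oxidation gene (5) were higher with PE on CD. Of the muscle markers 1 (8) was higher with MD in vehicle and 0 (4) were lower with PE on MD. DESeq2 called 5 fatty acid oxidation genes (3) higher with MD in PE. Of the 10 genes most like Pnpla3 and Pnpla5, 9 and 8 remained by Spearman's rho and 10 and 9 with RLE scaling. Counts of 0 to 2 per library limit what can be said of Pnpla5 in MD + PE.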
